A study of Danio rerio with 12 samples.

Results

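The Dlx genes encode homeodomain transcription factors related to Distal-less of Drosophila. They are switched on in outgrowing appendages, facial arches, sensory placodes and forebrain, and in vertebrates most of them lie as neighbouring pairs that share regulatory DNA. In zebrafish dlx5a and dlx6a mark the apical ectoderm of the fin folds and take part in their outgrowth, dlx3b and dlx4b mark the border of the neural plate and the ear and nose placodes that form from it, and dlx1a and dlx2a are best known from the forebrain and pharyngeal arches. The members were found by gene symbol in the platform annotation: 8 genes, namely dlx1a, dlx2a, dlx2b, dlx3b, dlx4a, dlx4b, dlx5a and dlx6a, each with 1 probe set, among 8793 genes with a symbol and 15502 probe sets tested. In the GRCz12tu assembly dlx3b and dlx4b are neighbours with 0 annotated genes lying wholly between them, and so are dlx1a and dlx2a, and dlx5a and dlx6a. The genes dlx4a and dlx2b have no other member beside them.

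Caudal fins of AB strain larvae were cut at 2 days post fertilization, the larvae spent 1 h in water with TCDD or DMSO, and the regrown tissue was taken at 2 or 3 days post amputation (dpa). TCDD is a dioxin that activates the aryl hydrocarbon receptor, and DMSO is its vehicle. The 12 Affymetrix arrays formed 4 groups of 3: TCDD (0.5 ng/mL) and vehicle at 2 dpa, then TCDD (0.5 ng/mL) and vehicle at 3 dpa. All fins, those of the vehicle groups included, were amputated and regenerating, no uncut fin was among the groups, and each array held a pool of 150 fins, so p-values measure the spread between pools. A value is the deposited ratio of a probe set. For all 8 Dlx probe sets, and for 77.5% of those tested, its median over the 12 arrays is 1, and for the others the median is below 1. A level of one gene therefore cannot be set against that of another. A difference is a difference of mean log2 ratios with the standard error (SE) of a limma fit over all probe sets.

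The 12 arrays bore out their labels for the exposure. The ratio of cyp1a, an enzyme gene induced through the receptor, ran from 1.98 to 4.30 on the 6 TCDD arrays, against 0.000773 to 0.0241 on the 6 vehicle arrays. The GAPDH controls have probe sets at either end of the transcript, which gauge RNA quality. Their 5' minus 3' log2 value ran from 0.169 to 0.486 on TCDD arrays, against −0.102 to 0.0816 on vehicle arrays. This value was taken from the deposited ratios, so it compares arrays and is no 5' to 3' ratio within an array. The hybridisation controls read high on the 3 vehicle arrays of 3 dpa and on 1 TCDD array of 3 dpa (replicate 2), and low on the other 8. All 8 Dlx probe sets had a median ratio of 1, as had 77.5% of the probe sets tested. The scaling is described with the processing. Among the listed epidermal probe sets 83.8% had a median of 1, and among the neural and forebrain markers 28.6%. What a median below 1 stands for is not given, so these shares are no check of the tissue. The labelled tissue could not be checked, because ratios carry no level.

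With TCDD the Dlx genes moved in opposite directions. Averaged over both days, dlx4b and dlx3b rose to 3.09 and 1.58 times their vehicle level, and dlx4a and dlx1a fell to 0.450 and 0.701 times theirs. The genes dlx2a, dlx2b, dlx5a and dlx6a did not pass the test. These 4 calls among 8 genes (2 higher and 2 lower) stand against 5% of all probe sets called in this comparison, 1.8% higher and 3.2% lower. The members were chosen with earlier results of these data known, so these counts are descriptions. Only the call of dlx4b held with each of the 12 arrays left out in turn. At 3 dpa alone 1 of the 8, dlx4b, was called, with a background of 0.574%, and at 2 dpa alone 0 of the 8, with a background of 0.161%. At an unadjusted p under 0.05 the count was 4 of 8 on each day, the same 4 genes, with a background of 10.2% at 2 dpa and 15.7% at 3 dpa, and again 4 of 8 over both days, with a background of 21.5%. In bulk tissue fewer cells of a type and less RNA per cell cannot be told apart.

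**Figure D1:**
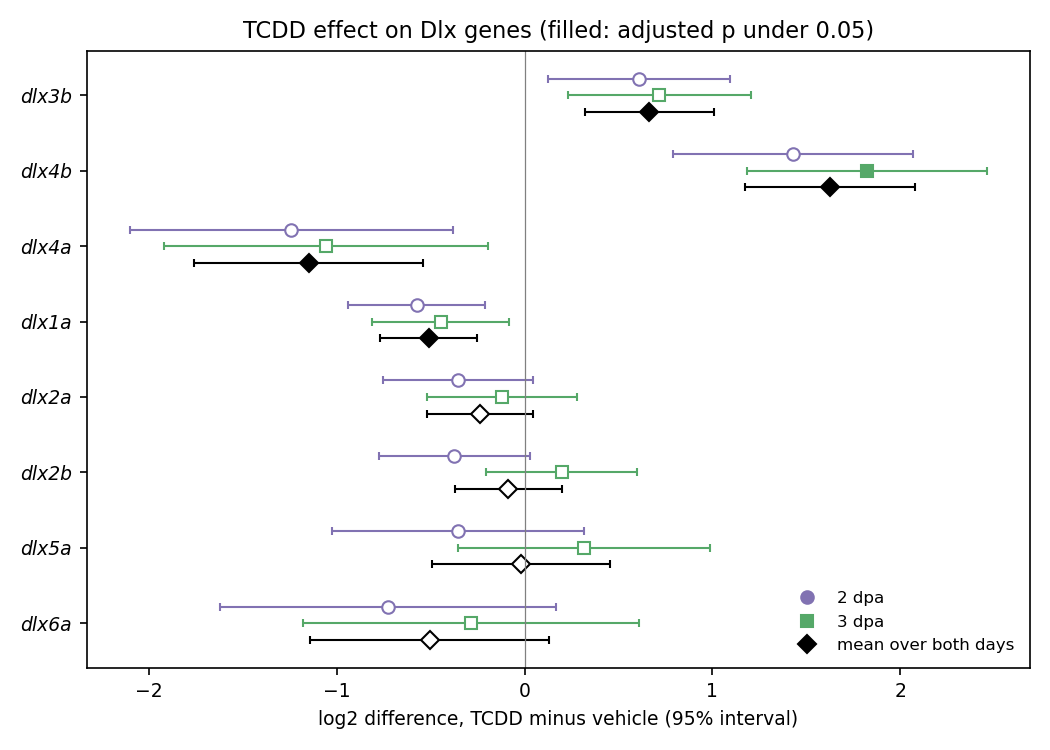
Difference of mean log2 ratios, TCDD minus vehicle, for each Dlx gene at 2 dpa, at 3 dpa and averaged over both days, with 95% intervals of the limma fit (3 arrays per group). Filled symbols had an adjusted p under 0.05; dlx3b and dlx4b lie right of 0 and dlx4a and dlx1a left of it in all 3 comparisons.

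The gene dlx4b gave the clearest separation. At 2 dpa its ratio was 2.08, 1.85 and 1.22 on the TCDD arrays, against 0.661, 0.628 and 0.579 on the vehicle arrays. At 3 dpa it was 1.57, 3.60 and 2.13 on the TCDD arrays, against 0.572, 0.611 and 0.776 on the vehicle arrays. Every TCDD array of either day therefore lay above every vehicle array, which was so in 1 of the 8 Dlx genes and in 1.64% of all probe sets (4.34% counting both directions). From high to low the group means on the log2 scale were 1.20 (3 dpa, TCDD), 0.74 (2 dpa, TCDD), −0.63 (3 dpa, vehicle) and −0.69 (2 dpa, vehicle). The TCDD groups of the 2 days overlapped each other, as did the vehicle groups.

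The limma difference for dlx4b was 1.63 over both days (SE 0.20, n = 6 arrays of each treatment, adjusted p = 0.00425). As a fold this is 3.09, and its 95% interval runs from 2.26 to 4.22. It was the 53rd highest of the 15502 differences and the 40th smallest p. By day it was 1.43 at 2 dpa (SE 0.29, n = 3 of each, limma adjusted p = 0.115) and 1.82 at 3 dpa (SE 0.29, limma adjusted p = 0.0268). The difference between the days themselves was 0.39, with an interval from −0.51 to 1.30. The call over both days held in all 20 alternatives. The call at 3 dpa was lost without vehicle 2 dpa replicate 1 (limma adjusted p = 0.0548) or 2 (0.0545). Without either the difference stayed at 1.82, since 2 dpa arrays enter that comparison only through the shared variance and the adjustment. The call was also lost without vehicle 3 dpa replicate 1 (0.105) or 2 (0.0868), or TCDD 3 dpa replicate 3 (0.0788). It was lost likewise after quantile normalization (0.099) and with only the groups compared (0.162, difference again 1.82). Leaving out replicate 2 of TCDD at 3 dpa, the 2 dpa difference, still 1.43, was called as well (limma adjusted p = 0.0361).

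Its neighbour dlx3b, which acts with dlx4b in placode formation, moved the same way by less. At 2 dpa its ratio was 1.58, 1.34 and 1.37 on the TCDD arrays, against 0.824, 0.978 and 1.01 on the vehicle arrays. The 3 dpa ratios were 1.48, 0.985 and 1.08 on the TCDD arrays, against 0.882, 0.806 and 0.501 on the vehicle arrays. The groups did not overlap on either day, but across the days 1 TCDD array of 3 dpa read below the highest vehicle array of 2 dpa. The difference over both days was 0.66 (SE 0.15, limma adjusted p = 0.0389), and its fold of 1.58 lies between 1.25 and 2.01 at 95%. By day it was 0.61 at 2 dpa and 0.72 at 3 dpa (limma adjusted p = 0.369 and 0.157). The call held without vehicle 3 dpa replicate 1, vehicle 3 dpa replicate 3 or TCDD 3 dpa replicate 2, and was lost without any one of the other 9 arrays (adjusted p from 0.0585 to 0.0954), while the difference stayed between 0.54 and 0.74.

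**Figure D2:**
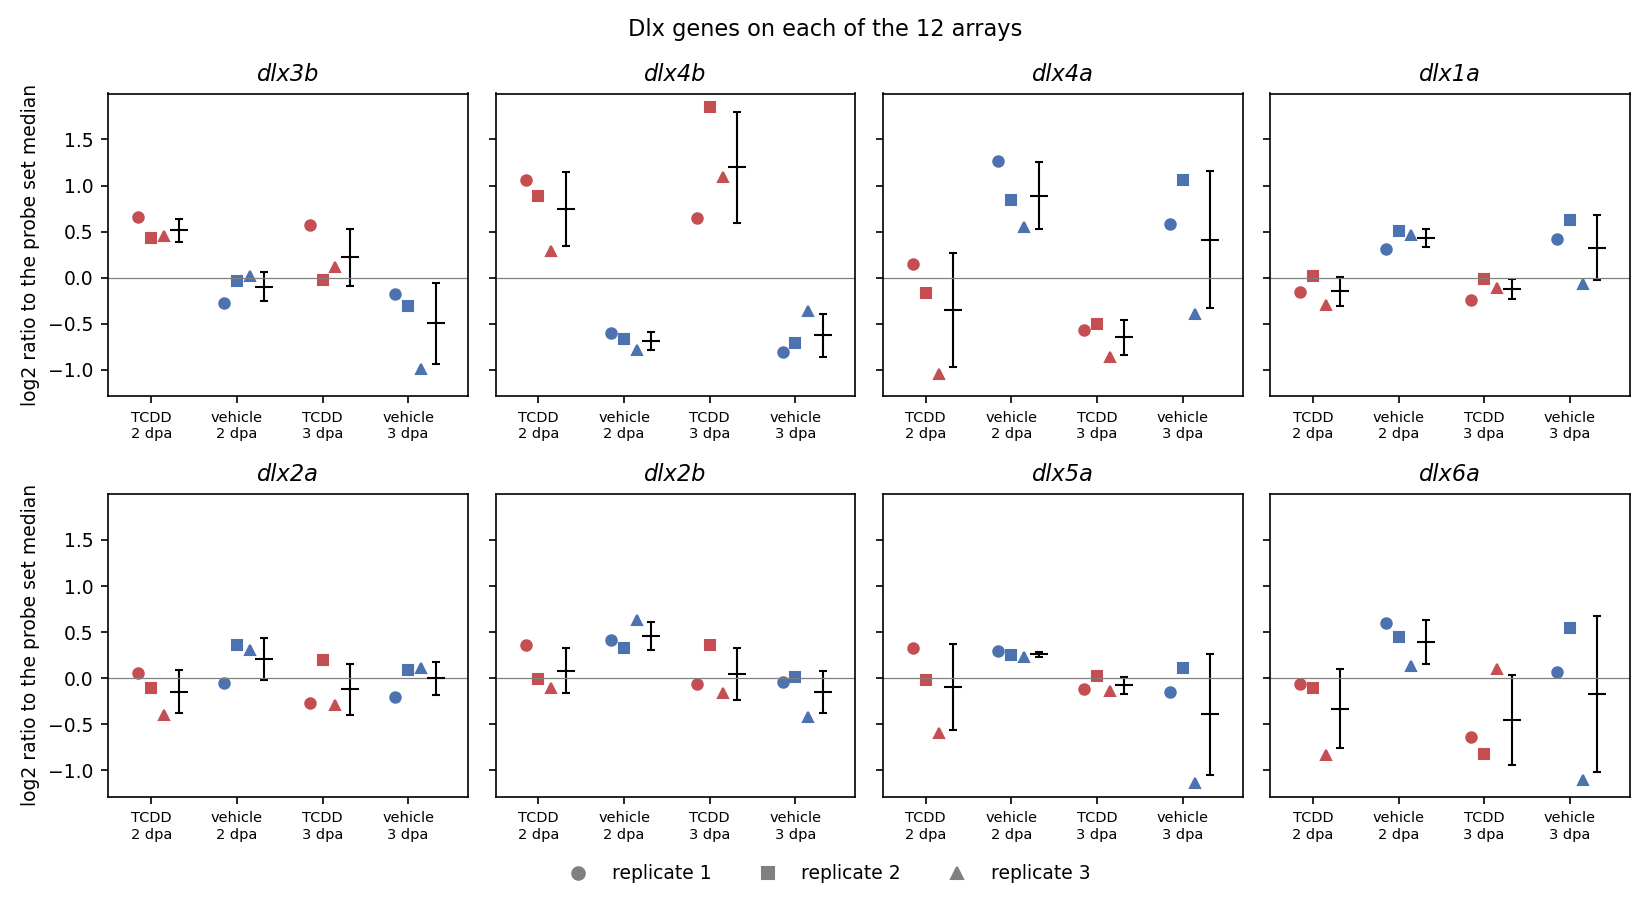
Log2 ratio of each Dlx gene on the 12 arrays (3 per group, symbol by replicate number; red TCDD, blue vehicle), with the group mean and SD as the bar to the right. For dlx4b all 6 TCDD arrays lie above all 6 vehicle arrays, and for dlx4a TCDD arrays lie below vehicle arrays within each day.

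The gene dlx4a, a relative of dlx4b on another chromosome that is known from the pharyngeal arches, ran the opposite way. At 2 dpa its ratio was 1.11, 0.891 and 0.485 on the TCDD arrays, against 2.41, 1.80 and 1.46 on the vehicle arrays. The 3 dpa ratios were 0.676, 0.703 and 0.549 on the TCDD arrays, against 1.49, 2.08 and 0.758 on the vehicle arrays. The groups were apart within each day, by a narrow margin at 3 dpa, where vehicle replicate 3 read low. Across the days TCDD arrays of 2 dpa overlapped that vehicle array. The difference over both days was −1.15 (SE 0.27, limma adjusted p = 0.0416). On the linear scale that is 0.450 times the vehicle level, between 0.295 and 0.687 at 95%. By day it was −1.24 at 2 dpa and −1.06 at 3 dpa (limma adjusted p = 0.296 and 0.23). The call held without vehicle 3 dpa replicate 3, TCDD 2 dpa replicate 1 or TCDD 3 dpa replicate 2 and was lost without any one of the other 9 arrays (adjusted p from 0.0614 to 0.0992), with the difference between −1.35 and −0.98.

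Set against each other on the same array, a comparison chosen after the values were seen and given with no test, the log2 ratio of dlx4b minus that of dlx4a was 0.91 to 1.33 on TCDD arrays at 2 dpa, against −1.87 to −1.34 on vehicle arrays. At 3 dpa it was 1.22 to 2.36 on TCDD arrays, against −1.77 to 0.03 on vehicle arrays. The sign of this difference was thus positive on all 6 TCDD arrays and negative on 5 of the 6 vehicle arrays, vehicle 3 dpa replicate 3 being the exception. Each ratio is scaled to its own probe set, so the sign says nothing of which transcript was more abundant.

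The gene dlx1a was also lower with TCDD. At 2 dpa its ratio was 0.895, 1.01 and 0.812 on the TCDD arrays, against 1.24, 1.42 and 1.38 on the vehicle arrays. A day later the ratios were 0.846, 0.990 and 0.923 on the TCDD arrays, against 1.33, 1.54 and 0.954 on the vehicle arrays. The groups were apart at 2 dpa and overlapped at 3 dpa through vehicle replicate 3. The difference over both days was −0.51 (SE 0.12, limma adjusted p = 0.0361). On the linear scale that is 0.701 times the vehicle level, between 0.587 and 0.839 at 95%. The call held without vehicle 3 dpa replicate 3, TCDD 2 dpa replicate 2 or TCDD 3 dpa replicate 2 and was lost without any one of the other 9 arrays (adjusted p from 0.0609 to 0.0834).

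The level of the hybridisation controls was also fitted as a block. Without the block the differences over both days were −0.51 for dlx1a, 0.66 for dlx3b and −1.15 for dlx4a. With their level as a block the calls over both days ended for dlx1a (−0.46, limma adjusted p = 0.135), dlx3b (0.54, adjusted p = 0.162) and dlx4a (−1.08, adjusted p = 0.146). In that fit dlx4b stood at 1.95 (adjusted p = 0.00188), and at 2.48 at 3 dpa (adjusted p = 0.00785). At 3 dpa the block sets TCDD replicate 2 alone against the 3 vehicle arrays, and at 2 dpa all 6 arrays had the low level. With that TCDD array left out the calls of dlx1a, dlx3b and dlx4a held. The part of the hybridisation level in these differences was not tested. The GAPDH 5' minus 3' value separated every TCDD array from every vehicle array, so it and the exposure cannot be told apart here.

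The partner of dlx1a in its gene pair, dlx2a, did not pass the test. At 2 dpa it ran from 0.757 to 1.04 on TCDD arrays, against 0.960 to 1.29 on vehicle arrays, and at 3 dpa from 0.814 to 1.15 on TCDD arrays, against 0.867 to 1.08 on vehicle arrays. Its difference over both days was −0.24, with an interval from −0.52 to 0.05 (limma adjusted p = 0.325). The tooth germ gene dlx2b ran from 0.928 to 1.29 with TCDD at 2 dpa, against 1.25 to 1.54 with vehicle, and from 0.894 to 1.29 with TCDD at 3 dpa, against 0.748 to 1.01 with vehicle. The sign of its difference turned between the days, −0.37 at 2 dpa and 0.20 at 3 dpa. Averaged over them it was −0.09, with an interval from −0.37 to 0.20 (limma adjusted p = 0.768).

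The fin fold genes dlx5a and dlx6a did not pass the test either. At 2 dpa dlx5a ran from 0.663 to 1.25 on TCDD arrays, against 1.18 to 1.22 on vehicle arrays, and at 3 dpa from 0.905 to 1.02 on TCDD arrays, against 0.454 to 1.08 on vehicle arrays. The groups overlapped on both days, and the difference over both days was −0.02 with an interval from −0.50 to 0.45 (limma adjusted p = 0.973). At 2 dpa dlx6a ran from 0.562 to 0.956 on TCDD arrays, against 1.099 to 1.51 on vehicle arrays, with no overlap. At 3 dpa it ran from 0.566 to 1.07 on TCDD arrays, against 0.463 to 1.45 on vehicle arrays, with overlap. Its difference over both days was −0.51 with an interval from −1.14 to 0.13 (limma adjusted p = 0.351), as large as that of dlx1a with an SE of 0.28 against 0.12. For dlx6a that interval includes the size called in dlx1a.

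Counting arrays alone, the TCDD and vehicle arrays did not overlap for 5 of the 8 genes at 2 dpa (background 20%) and for 3 of the 8 at 3 dpa (background 16.3%). At 2 dpa these were dlx3b and dlx4b, higher with TCDD (background 8.28%), and dlx1a, dlx4a and dlx6a, lower with TCDD (background 11.8%). At 3 dpa they were dlx3b and dlx4b, higher (7.99%), and dlx4a, lower (8.3%). The median difference of the 8 genes was −0.37 at 2 dpa and 0.04 at 3 dpa, against −0.0041 and 0.011 for all probe sets, a summary that hides the opposite directions within the family.

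**Figure D3:**
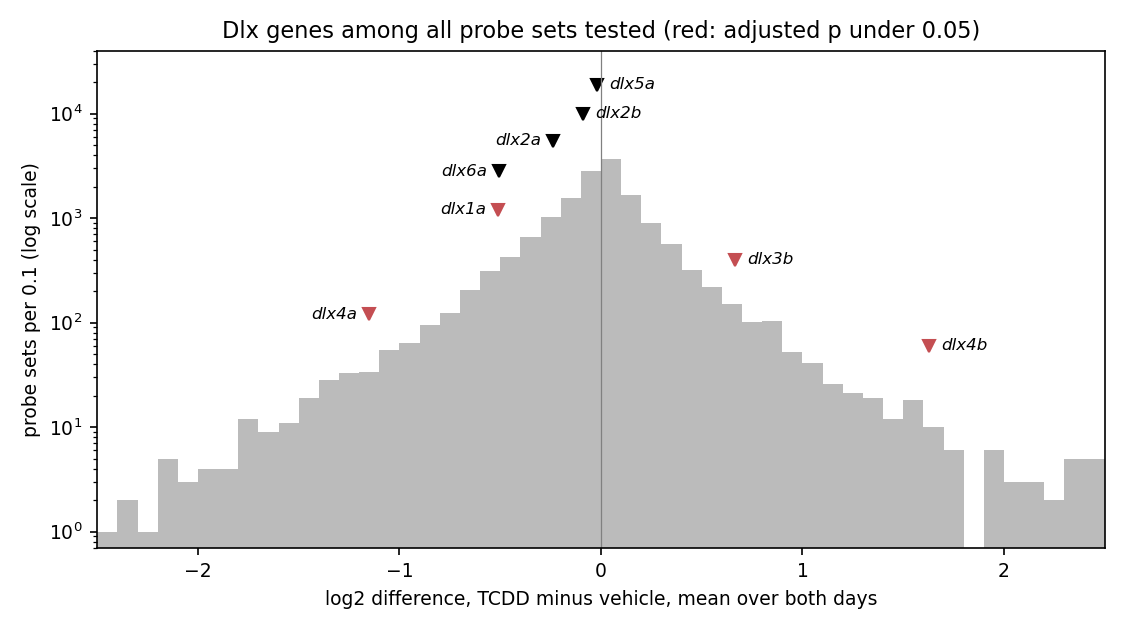
Number of probe sets by difference of mean log2 ratios, TCDD minus vehicle, averaged over both days (bins of 0.1, log scale; 24 of 15502 probe sets lie beyond 2.5 either way), with the 8 Dlx genes as triangles at arbitrary heights. Red triangles had an adjusted p under 0.05; dlx4b at 1.63 and dlx4a at −1.15 lie in opposite tails.

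Between the days no Dlx gene was called. For 3 dpa minus 2 dpa in vehicle fins, 7 of the 8 differences were below 0, from −0.65 for dlx5a and −0.61 for dlx2b to −0.10 for dlx1a, and dlx4b stood at 0.06. The median of the 8 was −0.44, against 0.0022 for all probe sets. Much of this rested on vehicle 3 dpa replicate 3. Without it dlx1a turned to 0.0927 and dlx4b to −0.0714. The others came to −0.0716 (dlx4a), −0.0925 (dlx6a), −0.15 (dlx3b), −0.28 (dlx5a) and −0.47 (dlx2b), and only dlx2a moved further below 0. With all 12 arrays 1 gene, dlx2b, had an unadjusted p under 0.05, with a background of 3.73%. Its ratio was 0.748 to 1.01 on vehicle arrays at 3 dpa, against 1.25 to 1.54 at 2 dpa, with no overlap. The arrays of dlx5a were likewise apart, 0.454 to 1.08 at 3 dpa against 1.18 to 1.22 at 2 dpa, and non-overlap occurred in 11.1% of all probe sets, 5.24% with the lower values at 3 dpa. The hybridisation controls read high on all 3 vehicle arrays of 3 dpa and low on all 3 of 2 dpa. In vehicle fins the day and that level therefore cannot be told apart. In TCDD fins the differences between the days ran from −0.29 for dlx4a and dlx3b to 0.45 for dlx4b, 0 of the 8 were apart (background 5.54%), and 0 had an unadjusted p under 0.05 (background 4.01%). In each of these comparisons limma called 0 of 15502 probe sets (0%). The TCDD effect at 3 dpa minus that at 2 dpa was above 0 for all 8 genes, from 0.11 to 0.67, but that sign was not stable: dlx3b turned after quantile normalization (−0.0947) and under the hybridisation block (−0.13). With single arrays left out dlx1a, dlx3b, dlx4a and dlx6a reached −0.0679, −0.14, −0.22 and −0.0296. None was called (background 0%), 1 of 8, dlx2b, had an unadjusted p under 0.05 (0.57, background 1.46%), and the 8 values share the same 12 arrays.

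Deviations from pool to pool were also compared. After each group's mean was taken away, Pearson's r over the 12 arrays was 0.93 between dlx4a and dlx5a, 0.83 between dlx1a and dlx5a, and 0.81 between the neighbours dlx5a and dlx6a. For the neighbours dlx1a and dlx2a it was 0.27, and for dlx3b and dlx4b it was −0.57, although both rose with TCDD. In an alternative chosen after seeing the data, without vehicle 3 dpa replicate 3 and TCDD 2 dpa replicate 3, r was 0.69 between dlx4a and dlx5a, 0.07 between dlx1a and dlx5a and 0.0582 between dlx5a and dlx6a. Without that vehicle array alone r of dlx5a was 0.51 with dlx1a and 0.54 with dlx6a. Without that TCDD array alone it was 0.82 and 0.77. The values of dlx5a with dlx1a and dlx6a thus came near 0 only without both arrays. Without both, r was 0.70 for dlx1a and dlx2a and −0.75 for dlx3b and dlx4b. With the group means left in, r over the 12 arrays was 0.88 between dlx4a and dlx1a and −0.70 between dlx4a and dlx4b, values that mix the TCDD difference with the spread within groups. These are descriptions of 28 pairs over 12 arrays that share their processing.

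**Figure D4:**
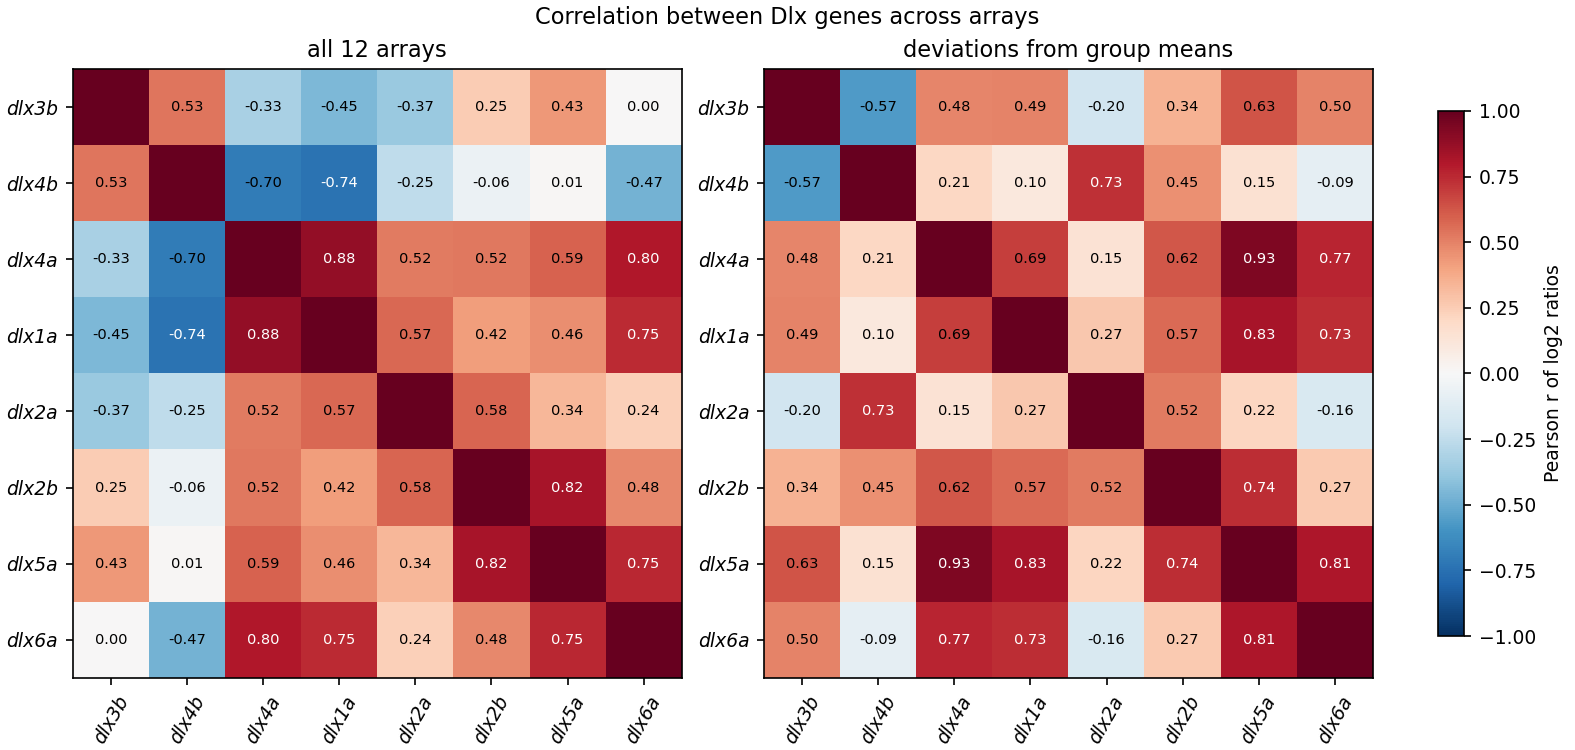
Pearson's r of log2 ratios between the 8 Dlx genes over the 12 arrays (left), and of deviations from the 4 group means (right). On the right dlx4a, dlx1a, dlx5a and dlx6a have r between 0.69 and 0.93 with each other, which without 2 low arrays lie between −0.16 and 0.69, while dlx3b and dlx4b have −0.57.

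For each Dlx gene the 3 named genes with the highest r over the 12 arrays were taken, with no test because they were picked for it. Those of dlx4b were ces2b, a carboxylesterase gene (r = 0.96, rho = 0.80), plcxd3 of the phospholipase C family (r = 0.96, rho = 0.87), and csf1b, a ligand gene for macrophage and pigment cell lineages (r = 0.96, rho = 0.82). Without the 2 arrays on which dlx4b lay farthest from its median, r was 0.92 to 0.94. Their TCDD differences over both days were 0.87, 1.57 and 0.83. Picking genes for likeness over arrays of both treatments favours a TCDD difference of the same sign, so these values, and those that follow, are descriptions. Those of dlx3b were abhd2a, a hydrolase gene, bambia, which encodes a decoy receptor of BMP and TGF-beta ligands, and s100w, with r from 0.91 to 0.94, and from 0.83 to 0.88 without the 2 farthest arrays. Their differences were 0.90, 0.56 and 0.93, and that of abhd2a was not called. The genes closest to dlx4a were aldh1a2, the enzyme gene of retinoic acid synthesis (r = 0.98, rho = 0.97), spcs1 of the signal peptidase and mycbp, with r from 0.95 to 0.97 without the 2 farthest arrays. Their differences were −1.22, −0.71 and −0.41, and those of aldh1a2 and mycbp were not called.

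For dlx6a the closest gene was fgf8a, a growth factor gene of outgrowing fin ectoderm, with r = 0.98 and rho = 0.99 and r = 0.96 without the 2 farthest arrays. Its TCDD difference was −0.44 and was not called. The other genes closest to dlx6a were upb1 and cox5ab (r = 0.97 and 0.96). The closest to dlx1a were asl, ciao2b and the retinoic acid receptor gene rarga (r from 0.94 to 0.96). The closest to dlx5a were mrps15, alpi.1 and hsbp1l1 (r from 0.93 to 0.95), and the r of hsbp1l1 came to 0.73 without the 2 arrays on which dlx5a was farthest from its median. The genes closest to dlx2a (ptk2ab, map7d1b and hp1bp3) and dlx2b (smim13, slc35f6 and washc3) had r from 0.86 to 0.92.

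The counts of listed genes that follow stand against 5% of all probe sets called over both days, 1.8% higher and 3.2% lower. Calls after quantile normalization are given without a background. In the alternatives other than leaving an array out, 387 to 1168 of all probe sets were called over both days, against 775. Counts after quantile normalization therefore cannot be set against those as deposited. Ectodermal factors that work with or upstream of Dlx genes were measured for 21 of 29 listed genes, by 25 probe sets. Over both days 0 were higher and 1 lower with TCDD, the homeobox gene msx1a at −0.83 (SE 0.13, limma adjusted p = 0.0117), and the median of the list was 0.10 against 0.0043 for all probe sets. BMP signals set Dlx expression at the neural plate border, and 27 of 40 listed BMP pathway genes were measured by 33 probe sets, of which 3 were higher (background 1.8%) and 1 lower (background 3.2%) with a median of 0.02. Higher were the antagonist gene fsta (1.58, another fsta probe set 0.41 and not called), bambia (0.56) and the ligand gene bmp2a (0.48). Lower was id2b, a BMP target (−1.24, another probe set −0.33 and not called). Of the apical fin epidermis and fin fold genes, 13 of 24 listed, 0 of 15 probe sets were called and the median was −0.22. After quantile normalization 1 was called lower, and 6 of the 15 differences were above 0, against 3 as deposited. The apical ridge factor sp8b stood at −0.49 (limma adjusted p = 0.0589), and the actinotrichia genes and2 and and3 at −0.29 and −0.34.

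The list of osteoblast and fin ray genes, among whose controls Dlx factors are known, had 14 of 20 genes measured by 20 probe sets. The homeobox gene evx1 of ray joints was higher (0.87), 1 of 20 beside a background of 1.8%, and 4 of 20 probe sets were lower beside a background of 3.2%: the matrix protein gene postnb on both of its probe sets (−2.11 and −1.32), col1a2 of collagen I (−1.32) and sparc, a collagen-binding matrix gene (−0.76). The median of the list was −0.13. After quantile normalization 2 probe sets of the list were called higher and 5 lower, with no background for that setting. Of 37 epidermal probe sets for 30 of 34 listed genes, 0 were higher and 2 lower beside a background of 3.2%. Both were of the keratin gene krt91 (−2.09 and −2.02). Of the 37 differences 26 were above 0, and the median was 0.29. After quantile normalization 1 epidermal probe set was called higher and 2 lower, again with no background for that setting.

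Markers of other cell types in which Dlx genes are expressed were read beside these results. Of 35 neural and forebrain probe sets for 24 of 33 listed genes, 2 were higher, both of sox3 (1.42 and 1.34, with a further sox3 probe set at 0.10), 0 were lower and the median was 0.08. The list score, the median log2 ratio of its probe sets on an array, ran from −0.43 to −0.18 on TCDD arrays and from −0.44 to −0.31 on vehicle arrays. Of 11 placode, lateral line and ear probe sets for 10 of 19 listed genes 0 were called, with scores from −0.63 to −0.20 on TCDD arrays and from −0.64 to −0.22 on vehicle arrays. Of 11 pharyngeal arch probe sets for 10 of 11 listed genes, the signal gene edn1 was higher (0.97) and sox9b of cartilage was lower on one probe set (−3.68) and not called on the other (0.0093). Scores ran from −0.43 to 0.04 on TCDD arrays and from −0.32 to −0.0088 on vehicle arrays.

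Of 22 muscle probe sets for 17 of 23 listed genes 0 were called over both days, but all 22 differences were above 0 (20 after quantile normalization), with a median of 0.29. By day the median was 0.03 at 2 dpa, with 17 of 22 above 0, and 0.40 at 3 dpa, with all 22 above 0. Scores at 3 dpa ran from −0.22 to 1.38 on TCDD arrays, so the pools differed widely, against −0.24 to −0.03 on vehicle arrays, which overlap. Of 23 blood, vessel, leukocyte and pigment cell probe sets for 16 of 26 listed genes, 1 was higher, for mpx (3.47, its other probe sets between −0.31 and 0.02). The pigment cell genes gch2 (−1.77, another probe set −0.03), dct (−1.45) and mitfa (−0.87) were lower. Scores of this list ran from −0.23 to 0.07 on TCDD arrays and from −0.17 to −0.01 on vehicle arrays. The part of these cell types, and of RNA quality, in the Dlx differences was not tested.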

How the data were processed

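Per the submitters' processing notes, the arrays were processed with GCRMA, with no version given. The authors deposited a linear ratio for each of 15617 probe sets on 12 arrays. The scaling is not given in the sources used here and was read from the values: the median over the arrays is 1 (tolerance 1e-06) in 12064, below 1 in 3553 and above 1 in 0. No absolute level or background can be recovered. Leaving out 115 control probe sets, log2 ratios of 15502 probe sets, without a pseudocount, were fitted with 4 group means in limma 3.58.1 (lmFit, eBayes, R 4.3.3). The fit had 8 residual degrees of freedom and a prior of 2.08, and was tested on simulated data. Not all simulated differences were recovered there, so a gene that was not called may still differ. A call is a Benjamini-Hochberg adjusted p under 0.05 over all probe sets, two-sided, and intervals are 95%. An exact permutation test of 3 arrays against 3 cannot go below 0.1. The number of arrays limits the precision. Symbols came from the platform annotation, brought up to date by Entrez identifier with GRCz12tu (10711 of 10795 matched). All Dlx probe sets were named, for the 10 other lists up to 3 called genes per direction or else those of lowest p, and for likeness 3 genes each. The members and lists were chosen with earlier results of these data known. Alternatives were a pseudocount of 0.05, a filter on the median, array centring, quantile normalization, only the groups compared, a hybridisation block, a replicate block, robust shrinkage, 1 row per gene, and each array left out. No sequence is shown.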

Additional observations from a re-analysis of the deposited data

How the results depend on the processing

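The count of Dlx genes called over both days was 4. It was 1 with the hybridisation level as a block and 1 to 4 with single arrays left out. All probe sets gave 775 calls (5%), 296 to 1471 with single arrays left out and 387 to 1168 in the other alternatives. At 3 dpa the Dlx count was 1. It was 0 after quantile normalization, 0 with only the groups compared (fewer arrays), and 0 to 1 with single arrays left out. All probe sets gave 89, 28 to 391 and 6 to 217 in the same order. At 2 dpa the Dlx count was 0, 1 with the hybridisation block, and 0 to 1 with single arrays left out. All probe sets gave 25, 8 to 49 and 22 to 163. Totals of each single setting are not given, so a change in Dlx calls is not set apart from one over all probe sets. TCDD 3 dpa replicate 2, the only TCDD array that read high, sets the block level alone. Calls with the block that involve vehicle 3 dpa arrays rest on that array. In the other comparisons the block equals leaving that array out, so at 2 dpa both give dlx4b a limma adjusted p of 0.0361. Apart from this identity, the causes of these changes were not tested, fewer arrays included. The replicate block left 4 called over both days, 1 at 3 dpa and 0 at 2 dpa. The sample labels give a replicate number only. Deviations of same-numbered arrays correlated between −0.25 and 0.49, and 6 of 12 arrays were closest to their own number. These values do not settle whether same-numbered arrays share a batch. Over all probe sets, calls at 2 dpa (25) ranged from 8 to 163, at 3 dpa (89) from 6 to 391, over both days (775) from 296 to 1471. In vehicle fins between days they reached 26 and for the effect between days 15, both with the hybridisation block, from 0.

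Signs turned only for differences that were not called. Over both days dlx5a was 0.0050 with arrays centred and 0.0303 with the hybridisation block, and −0.21 to 0.10 with an array left out; dlx2b was 0.0700 with the block. At 3 dpa dlx2a was 0.20 with the block, and with an array left out dlx5a ran from −0.0582 to 0.57 and dlx6a from −0.76 to 0.0679. In vehicle fins between days dlx4b was −0.92 with the block and −0.0714 to 0.15 with an array left out, and dlx1a −0.25 to 0.0927. In vehicle fins the hybridisation level and the day coincide. The block value there thus rests on TCDD 3 dpa replicate 2 against its group mates and is no separate estimate of the change in vehicle fins. In TCDD fins between days dlx5a was −0.0445 after quantile normalization, and with the block dlx1a was −0.0295, dlx2a −0.13, dlx5a −0.0345 and dlx6a 0.0605. With an array left out these ran from −0.0513 to 0.11 for dlx1a, −0.13 to 0.13 for dlx2a, −0.19 to 0.10 for dlx2b, −0.23 to 0.23 for dlx5a and −0.40 to 0.0605 for dlx6a. The block values in TCDD fins are the same as those without TCDD 3 dpa replicate 2. For the effect between days dlx3b was −0.0947 after quantile normalization and −0.13 with the block, and with an array left out the ranges were −0.0679 to 0.28 for dlx1a, −0.14 to 0.27 for dlx3b, −0.22 to 0.51 for dlx4a and −0.0296 to 0.80 for dlx6a.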

Other observations

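Vehicle 3 dpa replicate 3 had the lowest ratio of the 6 vehicle arrays for dlx1a, dlx2b, dlx3b, dlx4a, dlx5a and dlx6a and the highest for dlx4b. For dlx5a it read 0.454 where the other vehicle arrays of that day read 0.901 and 1.08, and for dlx6a 0.463 where they read 1.04 and 1.45. TCDD 2 dpa replicate 3 was the lowest TCDD array for dlx1a (0.812), dlx2a (0.757), dlx4a (0.485), dlx4b (1.22), dlx5a (0.663) and dlx6a (0.562). The SD over all probe sets of an array's difference from the mean of its group mates was 0.472 for that vehicle array, the highest of the 6 vehicle arrays, and 0.497 for that TCDD array, within a range from 0.313 to 0.577 over TCDD arrays.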
